A study of Mus musculus with 6 samples.

Results

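The genes for voltage-gated sodium and calcium channels, HCN channels and TRP channels were examined in the arcuate nucleus (ARC), a nucleus at the base of the hypothalamus, of male mice on normal-chow diet (NCD) or high-fat diet (HFD). They were chosen by symbol: every gene of the deposited table whose mouse symbol begins with *Cacna*, *Cacnb* or *Cacng*, or with *Hcn*, *Scn*, *Trpa*, *Trpc*, *Trpm* or *Trpv* and a number. This gave 68 of 22322 genes, which are all 68 genes with such symbols in the annotation used. Of these, 66 code for channel subunits or their close relatives, while *Trpc4ap* codes for a protein that binds a TRPC channel and *Trpc5os* is a gene on the strand opposite to *Trpc5*.

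The mice were males that began either NCD, with 16.5% fat, or HFD, with 60% fat, when 4 weeks old. They stayed on that diet for 16 weeks. The sources used here name no further agent or genotype that differed between the groups. C57BL/6J wild type mice and a cross of Kiss1-Cre with R26R-EYFP reporter mice, which marks Kiss1 neurons, were both in use, and the sources used here do not state which of them gave these samples. The part of the ARC that holds Kiss1 neurons was collected from thin frozen sections by laser capture microdissection, so each sample held RNA of every cell type in the area, and mRNA was captured by its poly(A) tail. There were 3 samples per diet, named NCD1 to NCD3 and HFD1 to HFD3 here. The sources used here do not state whether a sample came from a single mouse or a pool, so the p-values measure only the spread between these samples, which may in part be technical. Total counts were 15925648, 9937632 and 6882449 in NCD1, NCD2 and NCD3, and 8024664, 10479778 and 5171381 in HFD1, HFD2 and HFD3. On the CPM scale, which is the count divided by the size of the library, a floor of 3 counts amounts to 0.188 CPM in NCD1 and 0.58 CPM in HFD3, and this floor covers counting error only.

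Voltage-gated sodium channels carry the rising phase of the action potential, and consist of a pore-forming α subunit (such as *Scn2a*) with β subunits (such as *Scn2b*) that set its gating and place it in the membrane. Voltage-gated calcium channels have a pore (*Cacna1*) with α2δ (*Cacna2d*) and β (*Cacnb*) subunits; most *Cacng* genes are better known as AMPA receptor auxiliary proteins. HCN channels open on hyperpolarization and, with the low-voltage activated T-type calcium channels, shape rebound and burst firing of arcuate neurons, among them the Kiss1 neurons of this nucleus. TRP channels are cation channels opened by lipids, receptor signaling or temperature, and TRPC5 is known for the depolarization of arcuate proopiomelanocortin neurons by leptin.

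The tissue carried the markers of its label. *Agrp*, *Npy* and *Pomc*, the peptides of the feeding neurons, had mean levels of 72.5, 380 and 667 FPKM (fragments per kilobase, scaled to sequencing depth), and *Snap25*, a protein of neuronal synapses, had 572 FPKM. Markers of glia and vessels were also present, such as *Mbp* of oligodendrocytes at 887 FPKM and *Slc1a3* of astrocytes at 194 FPKM. *Avp*, the vasopressin precursor of magnocellular neurons, was the most abundant marker measured, at 3475 FPKM, and *Gh* and *Prl* of the pituitary were at 0 in all 6 samples. The channel levels are therefore those of a mixture of cells.

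The channel genes spanned a wide range of levels. On the FPKM scale, which allows genes to be set beside each other per length, 16 of the 68 had a mean of at least 10 over the 6 samples and 46 had a mean of at least 1. On the count scale, 55 of the 68 passed edgeR's filter on low counts and could be tested. The 13 below it were *Cacna1f*, *Cacng1*, *Cacng6*, *Scn4a*, *Scn10a*, *Trpc2*, *Trpc5os*, *Trpm1*, *Trpm5*, *Trpm8*, *Trpv1*, *Trpv5* and *Trpv6*, and no more than 14 counts of any of them were found in a sample. *Scn4a*, the sodium channel of skeletal muscle, and *Trpv5*, an epithelial calcium channel, had no count in any of the 6 libraries, and *Trpv1*, the capsaicin receptor, had 7, 2 and 2 counts in the NCD and 0, 1 and 1 in the HFD samples.

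**Figure D1:**
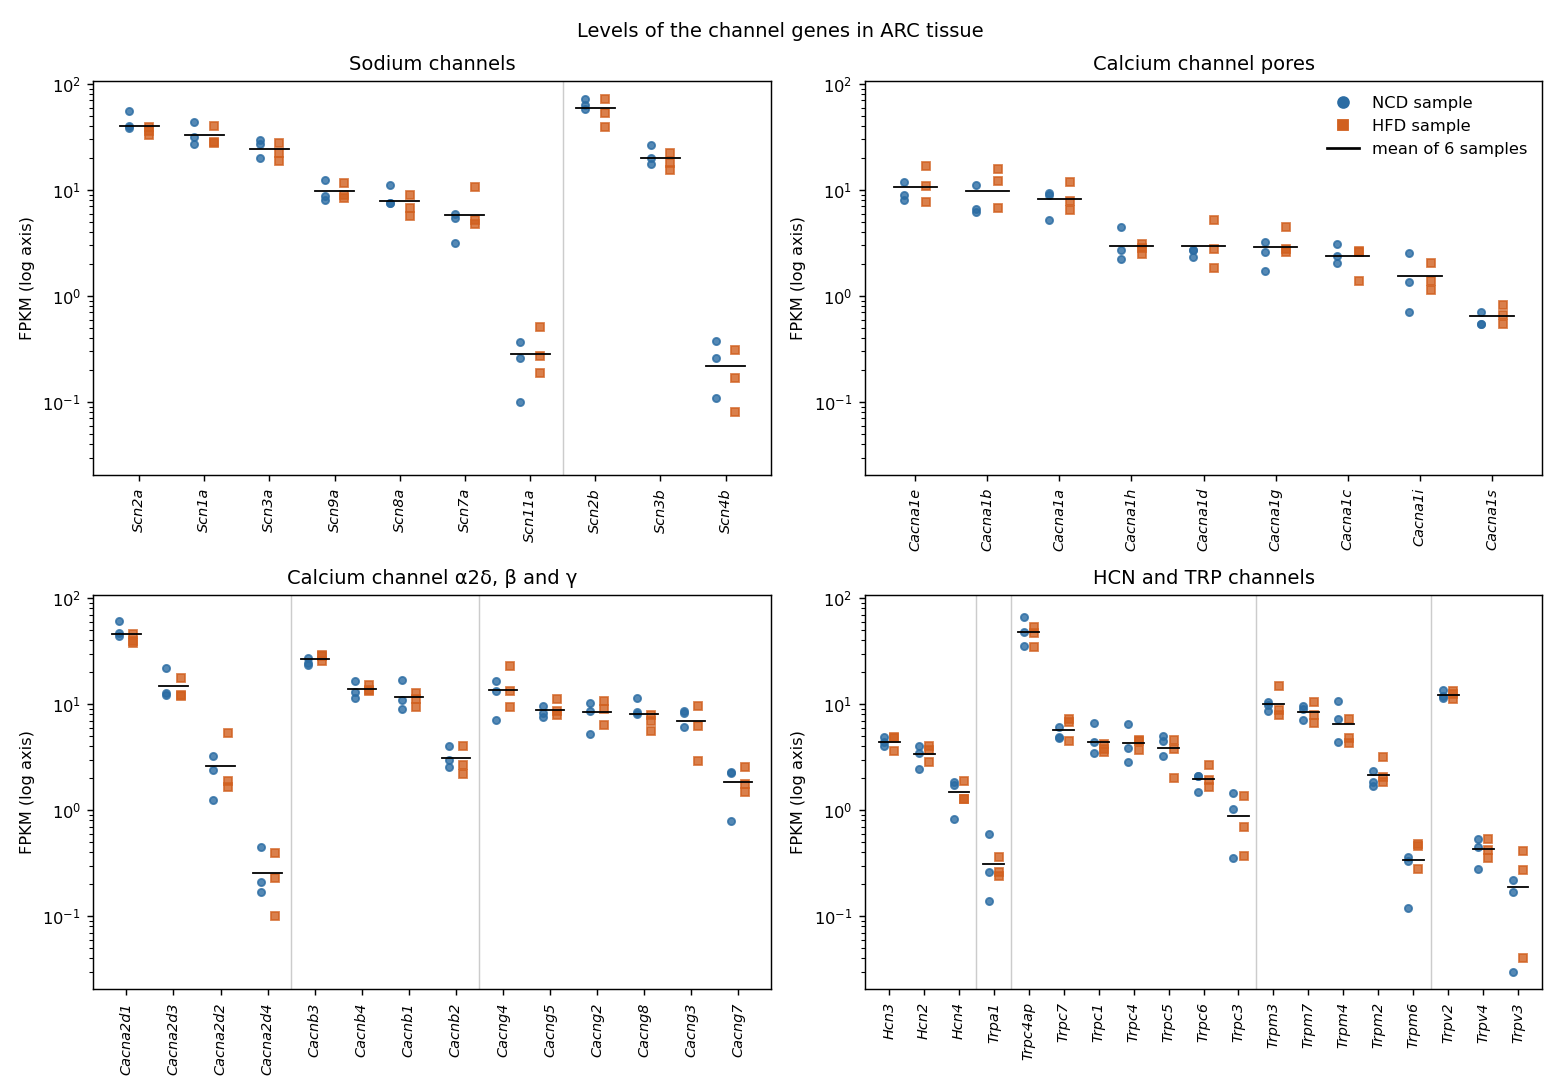
Level of 52 of the 55 channel genes that passed the filter, in FPKM on a log axis, in each NCD (circle) and HFD (square) sample, with the mean of the 6 samples as a line and grey lines between gene families. *Scn2b*, *Trpc4ap*, *Cacna2d1* and *Scn2a* lie highest, with means of 59.8, 47.5, 45.6 and 40.5 FPKM, and *Trpv3* lies lowest, at 0.19 FPKM.

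Among the sodium channel pores, the brain forms *Scn2a*, *Scn1a* and *Scn3a* led. *Scn2a* had 55.7, 38.5 and 40.6 FPKM in NCD1 to NCD3 and 32.8, 39.2 and 36.1 FPKM in HFD1 to HFD3, a mean of 40.5 ± 7.93 (SD, n = 6). It made up 26.5 to 38.5% of the summed FPKM of the α subunit genes. The order below it was not clear-cut: *Scn2a* was above *Scn1a* (33.1 ± 6.93 FPKM, SD, n = 6) in 4 of 6 samples, and *Scn1a* above *Scn3a* (24.3 ± 4.45 FPKM, SD, n = 6) in 5 of 6. *Scn3a* then stood clear of *Scn9a* (9.73 FPKM) with no overlap of their ranges. *Scn8a*, the pore of mature nodes and axon initial segments, had 7.94 FPKM, and *Scn7a*, which codes for the sodium sensor Nax of glia and sensory circumventricular organs, had 5.85 FPKM. *Scn10a* and *Scn11a* of sensory ganglia were at 0.01 and 0.283 FPKM. In GRCm38, *Scn3a* (chr2:65457118-65567627), *Scn2a* (chr2:65620771-65767447), *Scn1a* (chr2:66270778-66440840) and *Scn7a* (chr2:66673425-66784914) lie near each other on chromosome 2.

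Of the β subunit genes, *Scn2b* was highest at 59.8 ± 12.5 FPKM (SD, n = 6). It had 58.6, 71.6 and 63.9 FPKM in the NCD and 53.1, 72.4 and 39.4 FPKM in the HFD samples, lowest in HFD3. *Scn3b* had 20.1 FPKM. *Scn4b*, whose product gives resurgent sodium current in other neurons, had 0.218 FPKM, although it lies next to *Scn2b* on chromosome 9 (45138395 to 45154152, against 45117782 to 45130070).

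The pores of the Cav2 channels, which trigger transmitter release, were the most abundant calcium channel pores. *Cacna1e* (R-type) had 10.7 ± 3.42 FPKM, *Cacna1b* (N-type) 9.78 ± 3.94 and *Cacna1a* (P/Q-type) 8.31 FPKM (SD, n = 6), and their ranges overlapped. *Cacna1a* was above the next pore, *Cacna1h*, in all 6 samples without overlap. The L-type pores *Cacna1d* and *Cacna1c* had 2.94 and 2.37 FPKM, and *Cacna1s* of skeletal muscle 0.642 FPKM.

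The T-type pores were measured at a lower level than the Cav2 pores. *Cacna1h* had 4.49, 2.26 and 2.72 FPKM in the NCD and 2.48, 2.87 and 3.07 FPKM in the HFD samples. *Cacna1g* had 1.74, 2.59 and 3.21 FPKM in the NCD and 2.78, 2.58 and 4.5 FPKM in the HFD samples. *Cacna1g* was the higher of the pair in 4 of 6 samples, so that the order of their means (2.98 and 2.9 FPKM) did not hold across samples. *Cacna1i* (1.53 FPKM) was below *Cacna1g* in all 6.

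For the auxiliary calcium channel genes, 1 member of each of the α2δ and β families dominated. *Cacna2d1*, the α2δ subunit that binds gabapentin, had 60.3, 46.5 and 43.9 FPKM in the NCD and 39.5, 45.5 and 37.9 FPKM in the HFD samples, 66.8 to 76% of its family's sum. *Cacna2d3* followed at 14.7 FPKM without overlap. *Cacnb3* had 26.5 ± 2.35 FPKM (SD, n = 6), 44.3 to 51.8% of the β subunit sum, clear of *Cacnb4* (13.8 FPKM). In the *Cacng* family the order of *Cacng4* (13.7 FPKM), *Cacng5*, *Cacng2* and *Cacng8* (8.84, 8.38 and 8.04 FPKM) was not resolved, their ranges overlapping from neighbour to neighbour.

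The HCN genes were measured at levels below those of the leading sodium and calcium channel genes. *Hcn3* had 4.85, 4.4 and 4.03 FPKM in the NCD and 4.92, 3.58 and 4.83 FPKM in the HFD samples. *Hcn2* (3.4 ± 0.64 FPKM, SD, n = 6) was below *Hcn3* in all 6 samples, with ranges that overlapped, and *Hcn4* (1.47 ± 0.423 FPKM) was below *Hcn2* without overlap.

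Among the TRP channels, *Trpv2* was highest at 12.3 ± 1.02 FPKM (SD, n = 6), and held 92.5 to 96.1% of the *Trpv* sum. *Trpm3*, a channel gated by pregnenolone sulfate and heat, had 10.1 FPKM and was above *Trpm7* (8.5 FPKM), a channel fused to a kinase, in all 6 samples. In the *Trpc* family, *Trpc4ap* was far above the channels at 47.5 FPKM. *Trpc7* led the channels at 5.71 FPKM, and *Trpc1*, *Trpc4* and *Trpc5* followed at 4.35, 4.34 and 3.86 FPKM with overlapping ranges. *Trpc5* had 4.97, 3.27 and 4.51 FPKM in the NCD and 3.81, 2.02 and 4.56 FPKM in the HFD samples. The cold receptor *Trpm8* had no more than 1 count in any sample, and the irritant receptor *Trpa1*, which passed the filter, had 40, 11 and 4 counts in the NCD and 9, 10 and 8 in the HFD samples.

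The FPKM values carry a limit of their own. The transcript length that each FPKM value implies, found from the count and the total, was nearly constant for most members, but differed by more than 1.2 times between samples in 12 of the 43 with at least 40 counts in each sample. For *Trpm2* it ran from 2665 bases in HFD1 to 7288 in NCD1, and for *Cacna1b* from 5497 bases in HFD1 to 9664 in NCD3. *Trpm4* had an implied length of 654 to 1106 bases where the annotation has 10826 exon bases, so its 6.46 FPKM rests on that short implied length. Which transcript was present was not tested. Diet was therefore compared on counts, with CPM normalized by TMM factors.

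No channel gene passed an adjusted p under 0.05 in the diet comparison (0 of 55, edgeR's quasi-likelihood test with Benjamini-Hochberg adjustment over 14188 genes). Over all genes 8 passed, which is 0.0564%. At an unadjusted p under 0.05, 1 of the 55 passed, or 1.82%, where 2.3% of all genes did, and DESeq2 gave 0 channel genes at either threshold. The log2 fold change of HFD against NCD was above 0 in 29 members and below 0 in 26, with a median of 0.01 where the median of all genes was 0.00. The median size of the log2 fold change was 0.16 in the members and 0.17 in all genes. Since this is bulk tissue, fewer cells of a type and less RNA per cell cannot be told apart in any of these values.

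**Figure D2:**
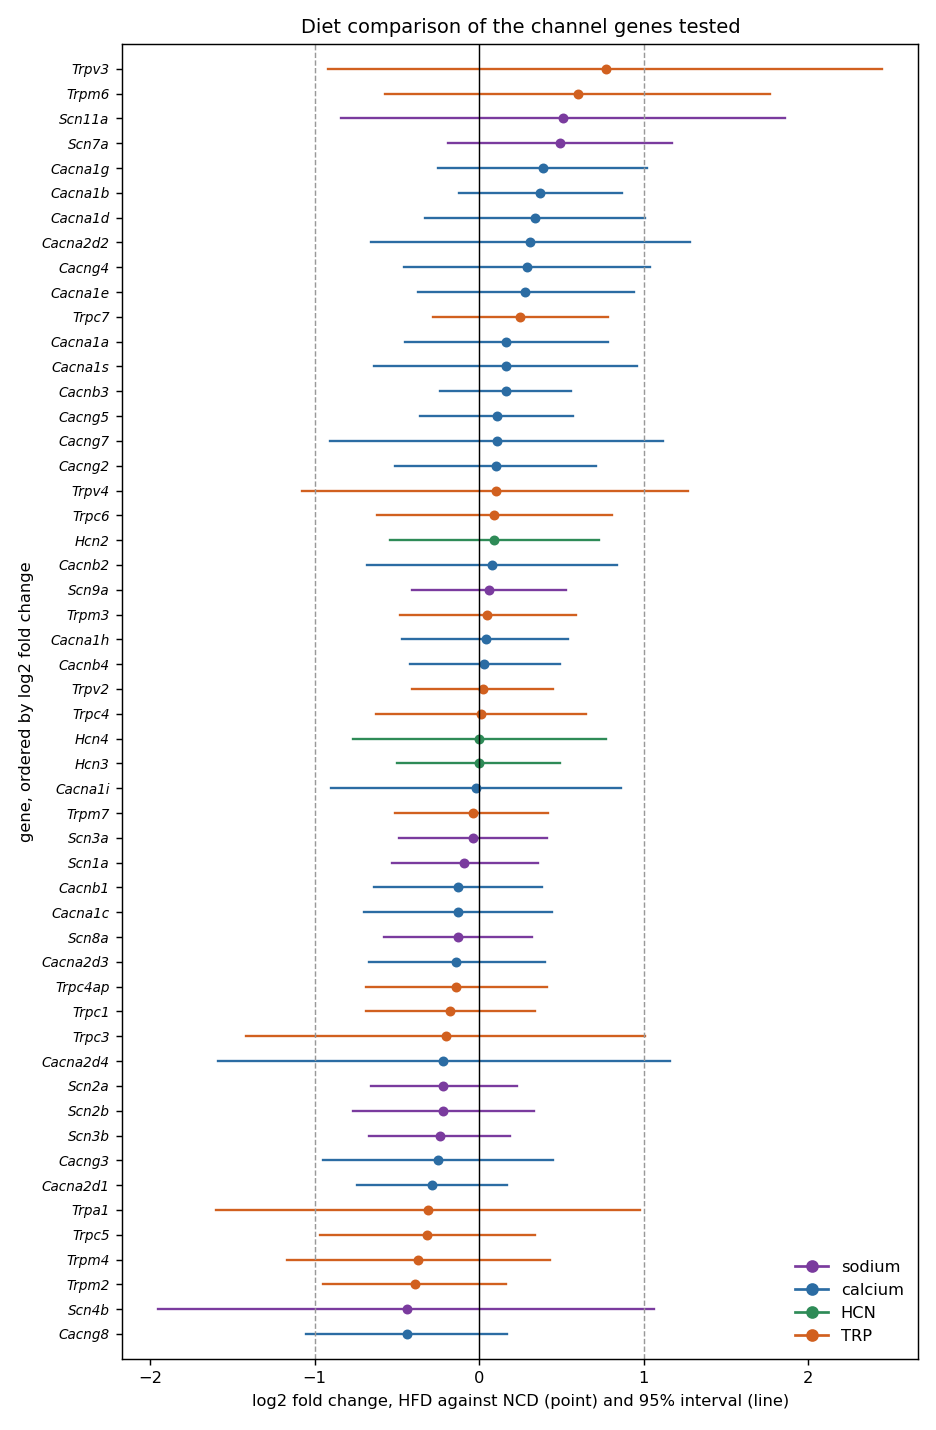
Log2 fold change of HFD against NCD (point, x axis) with its 95% interval (line) for 52 of the 55 channel genes tested, ordered by value, with dashed lines at -1 and 1. The intervals of 36 of these lie between the dashed lines, and all 52 include 0.

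The 95% interval of the log2 fold change lay between -1 and 1, meaning within a doubling or halving, for 39 of the 55 channel genes (70.9%), against 73.7% of all genes tested. Of the 46 members with a mean of at least 1 FPKM, 38 had such an interval. The narrowest included *Cacnb3* (-0.24 to 0.56) and *Trpv2* (-0.41 to 0.45). For the other 16 a change of more than 1 on the log2 scale was inside the interval, so these data do not decide whether there was one. They included *Cacna1g* (-0.25 to 1.02), *Cacng4* (-0.46 to 1.04), *Scn7a* (-0.19 to 1.17) and low genes such as *Trpv3* and *Scn4b*.

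The β subunit genes *Scn2b*, *Scn3b* and *Scn4b* had log2 fold changes of -0.22, -0.24 and -0.44 (SE 0.25, 0.20 and 0.69), none at p under 0.05. *Scn3b* had 93.3, 75 and 74.9 CPM in the NCD and 68.9, 78.3 and 58.9 CPM in the HFD samples. HFD2 lay above NCD2 and NCD3, so the groups overlapped.

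The samples of the diets did not overlap in CPM for 3 members, 1 with HFD above NCD (1.82% of the 55, where all genes gave 3.24%) and 2 with HFD below (3.64%, where all genes gave 3.24%). None of them was at p under 0.05. *Cacna1b*, the N-type pore, had 46, 66 and 66.1 CPM in the NCD and 67, 66.4 and 96.9 CPM in the HFD samples, with a log2 fold change of 0.37 (SE 0.23, edgeR adjusted p = 0.999). HFD2 and NCD3 were all but equal, and the separation was lost with library totals, RLE size factors or FPKM.

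*Cacng8*, an AMPA receptor auxiliary gene, had 8.49, 11.6 and 10.7 CPM in the NCD and 7.58, 8.18 and 6.77 CPM in the HFD samples (log2 fold change -0.44, SE 0.28, edgeR adjusted p = 0.999). All HFD samples were lower, also with library totals, RLE size factors and FPKM. *Trpm2*, a channel opened by ADP-ribose and oxidative stress, had 11.7, 13.8 and 13.2 CPM in the NCD and 8.45, 10.5 and 10.5 CPM in the HFD samples (log2 fold change -0.39, SE 0.25, edgeR adjusted p = 0.999). On log2(FPKM + 1) its difference was 0.17 in the other direction, with the shortest implied transcript length in HFD1.

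**Figure D3:**
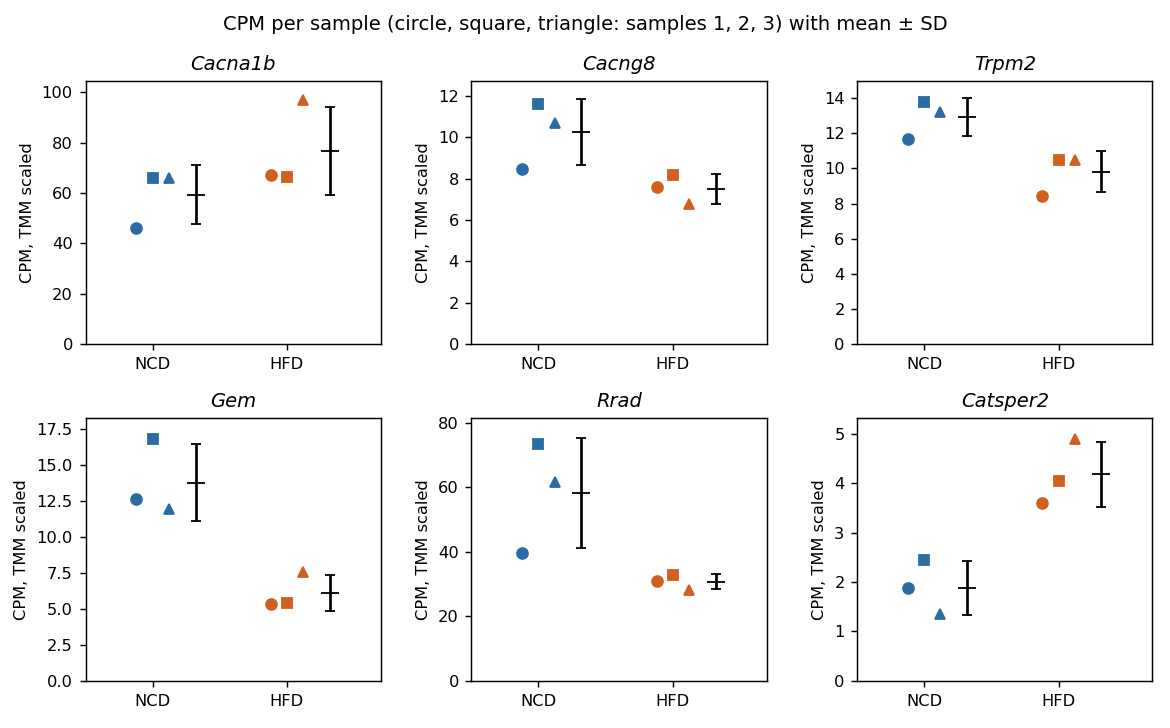
CPM (y axis, TMM scaled, from 0) of 3 channel genes and of *Gem*, *Rrad* and *Catsper2* in each NCD and HFD sample, with the symbol giving the sample number and the bar the mean ± SD of 3 samples. The diets do not overlap in any panel; in *Cacna1b* the gap is 66.1 against 66.4 CPM.

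The start regions of *Cacna1b* and *Trpm2* are shown because their samples separated in CPM; *Cacng8* is left out, since its RefSeq start lies 3359 bases inside the gene of the annotation used for the counts. Each window runs from 250 bases before to 50 bases after the RefSeq start site in GRCm38.p6, written 5′ to 3′ on the gene's strand, and capitals mark GGGCGG, the GC box, and TATAAA, on either strand. They lie at chr2:24763103-24763402 and chr10:77969823-77970122, both on the minus strand. The RefSeq start of *Trpm2* lies 691 bases inside the gene of that annotation, and that of *Cacna1b* at its first base.
Cacna1b promoter: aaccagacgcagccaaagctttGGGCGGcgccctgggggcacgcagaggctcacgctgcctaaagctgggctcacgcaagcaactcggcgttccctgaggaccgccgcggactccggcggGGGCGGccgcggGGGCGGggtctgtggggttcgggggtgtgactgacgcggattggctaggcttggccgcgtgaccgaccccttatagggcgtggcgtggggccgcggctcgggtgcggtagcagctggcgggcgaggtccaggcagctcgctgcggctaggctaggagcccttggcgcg
Trpm2 promoter: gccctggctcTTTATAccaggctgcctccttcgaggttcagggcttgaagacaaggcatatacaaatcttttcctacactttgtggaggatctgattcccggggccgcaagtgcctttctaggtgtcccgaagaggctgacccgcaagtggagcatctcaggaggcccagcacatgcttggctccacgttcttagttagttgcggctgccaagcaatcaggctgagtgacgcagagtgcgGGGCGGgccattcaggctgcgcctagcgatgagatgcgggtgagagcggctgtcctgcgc

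The *Cacna1b* window has 3 GC boxes, at 228, 130 and 118 bases before the start, and the *Trpm2* window has 1 at 10 bases before it and 1 TATAAA at 240 bases before it. RefSeq windows were matched for 53 of the 68 channel genes, 68 windows in all. GGGCGG was in 23 of these (33.8%) and in 35.7% of all 32851 windows, and TATAAA in 7 (10.3%) and in 13.6% of all. TGACGTCA, the cAMP response element, was in 0 of the 68 windows and in 1.79% of all. With so low a share in all windows, 0 of 68 does not set these windows apart. Its shorter part TGACGT was in 3 of the 68 (4.41%), those of *Cacnb2*, *Trpc1* and *Trpc2*, and in 7.51% of all. These are matches of letters in short windows and describe no binding.

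The 3 highest and 3 lowest log2 fold changes fell mostly on genes with few reads. *Trpv3*, *Trpm6* and *Scn11a* were highest at 0.77, 0.60 and 0.51, with SEs of 0.78, 0.54 and 0.62. *Trpv3* had 20, 2 and 7 counts in the NCD and 2, 25 and 8 in the HFD samples, and without HFD2 its log2 fold change was -0.05. *Scn4b* shared the lowest place with *Cacng8* at -0.44, with an SE of 0.69, and *Trpm2* followed.

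Of the channels best known in arcuate neurons, none of those named here was at p under 0.05. For *Hcn2*, *Hcn3* and *Hcn4* the log2 fold changes were 0.09, 0.00 and 0.00 (SE 0.29, 0.23 and 0.36), with all 3 intervals between -0.77 and 0.77. *Trpc5* had 19.8, 13.7 and 19.4 CPM in the NCD and 15.8, 8.67 and 18.4 CPM in the HFD samples (log2 fold change -0.32, SE 0.30, edgeR adjusted p = 0.999). The T-type genes *Cacna1g*, *Cacna1h* and *Cacna1i* had 0.39, 0.04 and -0.02, with SEs of 0.29, 0.23 and 0.41.

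The genes that led their families were also tested. Below 0 were *Cacna2d1* at -0.29 (SE 0.21), *Scn2a* and *Scn2b* at -0.22 each (SE 0.20 and 0.25) and *Trpc4ap* at -0.14 (SE 0.26). Above 0 were *Cacng4* at 0.29 (SE 0.35), *Cacna1e* at 0.28 (SE 0.30), *Cacnb3* at 0.16 (SE 0.18), *Trpm3* at 0.05 (SE 0.25) and *Trpv2* at 0.02 (SE 0.20). None was at p under 0.05.

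Summed over their members in FPKM, the families overlapped between the diets, with 1 exception. The *Cacna2d* genes, led by *Cacna2d1*, summed to 83.7, 61.4 and 60 FPKM in the NCD and 59.1, 59.8 and 55.4 FPKM in the HFD samples, so that the lowest NCD sample was just above the highest HFD sample. *Cacna2d1* itself overlapped in CPM with TMM factors, at 330 in NCD3 and 332 in HFD2, and separated with RLE size factors. There is no share over all genes to set beside a family sum, and the separation was not tested. The sodium α subunit genes summed to 130 ± 17.3 FPKM in the NCD and 116 ± 17.1 in the HFD samples, and the HCN genes to 14.2 ± 1.02 and 14 ± 1.65 FPKM (SD, n = 3 per diet). The Cav2 pores summed to 19.4, 29 and 27.9 FPKM in the NCD and 30.9, 21 and 44.6 FPKM in the HFD samples, and the T-type pores to 7.21 ± 1.14 and 7.62 ± 1.72 FPKM.

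Proteins that work with these channels were compared in the same fit. Of 63 partner genes listed, 62 were in the table under their symbols and 52 were tested, with 1 higher and 2 lower in HFD at an unadjusted p under 0.05 (5.77%, where 2.3% of all genes passed), and 0 at an adjusted p under 0.05. Without HFD2, 6 passed the unadjusted threshold, and over all genes 659 of 14314 did, against 326 of 14188 with all samples. The median log2 fold change of those tested was 0.04. The partner genes were also listed with earlier results of these data known, so their share is not independent of the data.

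*Gem* and *Rrad* code for small GTPases of the RGK family, which bind calcium channel β subunits and hold back the channel at the membrane. *Gem* had 12.6, 16.8 and 11.9 CPM in the NCD and 5.34, 5.42 and 7.53 CPM in the HFD samples, a log2 fold change of -1.19 (SE 0.29, 95% interval -1.82 to -0.56, edgeR adjusted p = 0.851). *Rrad* had 39.7, 73.4 and 61.5 CPM in the NCD and 31.1, 32.9 and 28.2 CPM in the HFD samples, a log2 fold change of -0.92 (SE 0.24, 95% interval -1.44 to -0.39, edgeR adjusted p = 0.999). Every HFD sample was below every NCD sample for either gene, and the unadjusted p of both was under 0.05 in each alternative run, while the adjusted p ran from 0.289 to 1 for *Gem* and from 0.118 to 1 for *Rrad* (edgeR, DESeq2 and limma). The family's other members were *Rem2*, with a log2 fold change of 0.02 (SE 0.32), and *Rem1*, below the filter. *Catsper2*, a sperm calcium channel gene, had 1.87, 2.44 and 1.35 CPM in the NCD and 3.6, 4.04 and 4.89 CPM in the HFD samples (log2 fold change 1.12, SE 0.42, edgeR adjusted p = 0.999), and its unadjusted p was 0.05 or more without NCD1, NCD3 or HFD3. Its locus overlaps that of *Pdia3* on the opposite strand.

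The remaining partner lists held no gene at p under 0.05. *Sptbn4*, the spectrin of axon initial segments, had a log2 fold change of 0.73 (SE 0.35), with 29.2 and 38.4 CPM in HFD1 and HFD3 but 12.1 CPM in HFD2, below the NCD samples at 14.7 to 18.2 CPM. *Nalcn*, the sodium leak channel, had -0.31 (SE 0.22) and its partners *Unc79*, *Unc80* and *Fam155a* 0.25, 0.16 and 0.24. The FGF homologous factor genes ran from -0.36 to 0.11, and the store operated entry genes *Stim1*, *Stim2* and *Orai1* had 0.02, -0.41 and 0.10. Of the intracellular release genes, *Itpr2* had 0.45 and *Ryr1* 0.67 (SE 0.25 and 0.50). The pumps and exchangers ran from -0.15 to 0.32. The most abundant partner of all was *Calm2*, a calmodulin gene, at 2111 FPKM and a log2 fold change of 0.03. *Mcoln1*, a lysosomal TRP channel, had 48 FPKM and 0.02, *Itpr1* 15.6 FPKM and -0.04, *Atp2b1* 113 FPKM and 0.28, *Fgf12* 50.4 FPKM and -0.19, *Ank2* 76.2 FPKM and -0.08, *Nedd4l* 19.7 FPKM and -0.09, and *Scnn1a* 1.89 FPKM and -0.34.

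Markers of the cell types that the area could hold were compared as well. These lists were chosen with earlier results of these data known, so the share of them that passed is not independent of the data. Of 57 marker genes tested, 7 were higher and 5 lower in HFD at an unadjusted p under 0.05 (21.1%, where 2.3% of all genes passed), and 0 at an adjusted p under 0.05 (edgeR). None of the 12 was among the 8 general neuron markers, whose log2 fold changes ran from -0.27 for *Map2*, lower in every HFD sample, to 0.16 for *Rbfox3*. The 3 markers of magnocellular and paraventricular neurons, *Avp*, *Oxt* and *Sim1*, were each lower in every HFD sample, with log2 fold changes of -1.71, -0.87 and -0.60. Their summed level was 5309, 10062 and 4311 FPKM in the NCD and 2311, 2391 and 2227 FPKM in the HFD samples, almost all of it *Avp* and *Oxt*. Of the 7 arcuate markers, *Cartpt* and *Tac2* were higher at p under 0.05 (0.75 and 0.60). *Agrp*, *Ghrh*, *Th* and *Npy* had 0.53, 0.44, 0.21 and 0.07, and *Pomc* had -0.36. In the astrocyte, microglia and endothelial lists a single member passed. *Gfap* of astrocytes had 0.88 and *Slc1a2* 0.33 (SE 0.35 and 0.30). The median of the 6 astrocyte markers was -0.13, with *Aldh1l1*, *Slc1a3*, *Gja1* and *Aqp4* between -0.29 and -0.12. *C1qa* of microglia had 0.46 and the median of its 6 markers was 0.03. *Crym* and *Col23a1* of tanycytes passed at 0.89 and 0.91 (median of 6 tanycyte and ependyma markers 0.39). *Acta2* and *Tagln* of smooth muscle passed at -0.83 and -1.05, while *Rgs5* and *Pdgfrb* of pericytes had 0.00 and -0.01. *Cldn5* of endothelium had -0.48 (median of 4 markers -0.13) and *Cga* of the pituitary 1.36, with *Gh* and *Prl* at 0. The part of these cell types in the values of *Gem*, *Rrad* and the channel genes was not tested.

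Several channel genes followed the size of the library. In a fit with diet and the log2 total count, 10 of the 55 channel genes fell as the total count rose at an adjusted p under 0.05 (18.2%, against 9.86% of all genes) and 2 rose (3.64%, against 7.65% of all genes). This is CPM, from which the depth itself is already divided out. Of the 10 that fell, 9 were *Cacna*, *Cacnb* or *Cacng* genes, out of 23 tested, and the other was *Trpm3*. The 9 include *Cacng4* and *Cacng2*, of the family better known as AMPA receptor auxiliary proteins. Of the 12 sodium channel genes and 4 HCN genes tested, 0 were in either set.

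*Cacna2d2* had the steepest slope, with a log2 change of -1.41 (SE 0.25) per doubling of the total count (edgeR adjusted p = 0.00207). It had 6.62 CPM in NCD1, the largest library, and 28.2 CPM in HFD3, the smallest. *Cacna1i* (-1.24), *Cacng4* (-1.14), *Cacnb2* (-0.94), *Cacna1e* (-0.92), *Cacng2* (-0.81), *Cacna1g* (-0.80), *Cacna1a* (-0.79), *Trpm3* (-0.60) and *Cacna1b* (-0.50) followed. *Trpc4ap* rose by 0.68 (SE 0.15) and *Cacnb1* by 0.52 (SE 0.17) on the log2 scale per doubling. Without NCD3, 2 channel genes and 0.897% of all genes passed, so the count rests in large part on that library. Other genes moved with the total count as well: of 57 markers tested, 7 fell and 5 rose, among them *Slc1a2* and *Agrp* with slopes of -0.82 and -1.03 and *Gfap* and *Fezf1* with 0.96 and 0.76. What sets the libraries of different size apart was not tested.

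**Figure D4:**
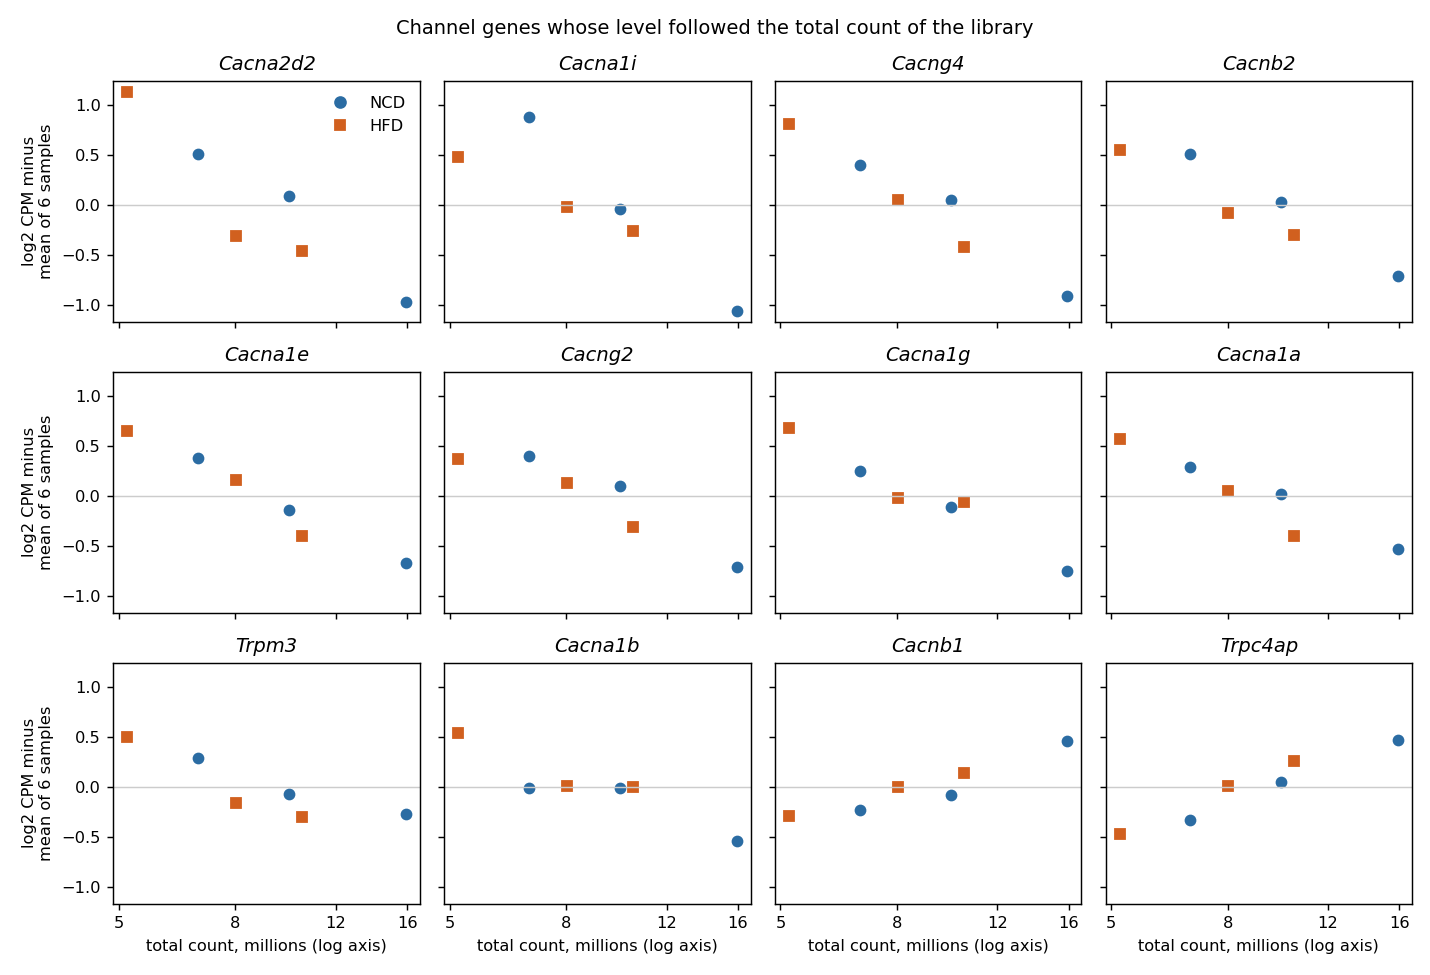
Log2 CPM minus the mean of the 6 samples (y axis) against the total count of the library (x axis, log scale) for the 12 channel genes with an adjusted p under 0.05 for the total count, in order of slope; circles are NCD and squares HFD samples. The first 10 genes fall from the smallest library, HFD3, to the largest, NCD1, and *Cacnb1* and *Trpc4ap* rise.

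With the total count in the model, the log2 fold change for the diet was -0.12 for *Cacna1e*, -0.21 for *Cacng4*, 0.05 for *Cacna1g*, 0.17 for *Trpc4ap* and -0.24 for *Trpm3*. Without it these were 0.28, 0.29, 0.39, -0.14 and 0.05, so their small differences between the diets took on another size or sign; none was at p under 0.05 either way.

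Some values depend on how reads of overlapping genes were divided, and the sources used here do not state whether strand was used in counting. In the annotation, 11 channel genes overlap another gene of the table, among them *Cacna1c* with *Dcp1b*, *Cacna1d* with *Dcp1a* and *Chdh*, *Hcn3* with *Pklr*, *Trpc4ap* with *Myh7b* and *Trpc5* with *Trpc5os*, all on opposite strands, and *Trpc2* with *Xntrpc* on the same strand.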

How the data were processed

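The authors sequenced poly(A) RNA of ARC tissue from 3 NCD and 3 HFD samples, removed ribosomal reads with bowtie2, aligned with HISAT2 and derived values with StringTie and RSEM; mm10 is the build in the submitters' processing notes, and versions and annotation are not given in the sources used here. The deposited table holds read counts, which the authors did not normalize, and FPKM values, which the authors scaled by transcript length and total, with their mean FPKM per group. Its 3 columns of the authors' own comparison (log2 ratio, p-value, FDR) were not used, and 0 columns of per-sample values were left unmapped. Sample titles gave the groups.

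Symbols and positions came from GENCODE M21 (GRCm38), which held 22267 of 22322 identifiers; the other 55 were tested without a symbol. Counts passed edgeR 4.0.16's filterByExpr (14188 genes), were normalized with TMM and tested with glmQLFit and glmQLFTest on diet alone (R 4.3.3), with Benjamini-Hochberg adjustment over all genes. SE is the log2 fold change over the root of F, and intervals are 95%. Alternatives were RLE factors, library totals, DESeq2 1.42.0, other count filters, limma 3.58.1 on log2(FPKM + 1) or log2(FPKM + 0.1), a replicate block, the log2 total count as a covariate and each sample left out. The fits were tested on simulated data. Named channel genes were those at p under 0.05, the most abundant of each family, the 3 highest and 3 lowest log2 fold changes, those whose diets did not overlap, and the T-type, HCN and *Trpc5* genes; of partners and markers, those at p under 0.05 and the most abundant of each list. Other genes named were chosen after their values were seen, and a few genes that the rule names are not reported here. The members and lists were chosen with earlier results of these data known. Sequences came from RefSeq (GRCm38.p6). Figures used matplotlib 3.10.9.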

Additional observations from a re-analysis of the deposited data

How the results depend on the processing

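The number of channel genes at an unadjusted p under 0.05 was 1 and became 0 with library totals alone, DESeq2, limma on log2(FPKM + 1) and limma on log2(FPKM + 0.1), and ranged from 0 to 1 with each sample left out. At an adjusted p under 0.05 it was 0 under every alternative run. The median log2 fold change of the channel genes ran from -0.10 to 0.08, within the spread between samples. The number of partner genes at p under 0.05 was 3; it was 5 with the replicate block and 2 to 6 with each sample left out, 6 without HFD2, where 659 of all 14314 genes passed. The sources used here do not state whether the replicate numbers of the titles pair the samples. Deviations of same-numbered samples correlated at -0.0116, 0.113 and 0.369. Samples of different number were not compared in this way, so these values do not decide whether there was a pairing. With the block, 589 genes passed p under 0.05 and 17 an adjusted p under 0.05, against 326 and 8. The count of channel genes that followed the total count and the count of intervals between -1 and 1 were added after seeing the data, unlike the diet comparison with the total count as a covariate; 12 channel genes followed the total count, and 2 to 16 did with each sample left out. Of 407 values of 28 named genes under the alternatives, 383 kept their side of the threshold, with moves of less than 1 SE for genes not at p under 0.05, some of which turned sign, 11 lost p under 0.05 (3 of them of *Catsper2*), 13 moved by more than 1 SE without reaching it, and 0 reversed a called direction. Among genes with few counts intervals were wide, from -0.92 to 2.45 for *Trpv3*.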
